A study of Mus musculus with 24 samples.

Results

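The domains described here are 822 wide stretches of acetylated chromatin in mouse liver that carry a GATA4 binding site. They are the regions of at least 10 kb, in a deposited table of 63686 regions marked by acetylation of histone H3 lysine 27 (H3K27ac), for which the authors also list a GATA4 ChIP peak within 500 bp. The regions are themselves stretches of acetylation, so their width is not independent of the signal, while the rule uses no difference between groups. The members are 1.29% of all regions, and 3 other sets serve as comparison: 1356 domains as wide without a listed GATA4 peak, 4470 narrower regions with one, and 57038 narrower regions without.

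H3K27ac marks active promoters and enhancers, and long unbroken stretches of it often lie over genes that define a cell type. GATA4 is a zinc finger transcription factor that binds DNA sequences containing GATA, and in the liver it acts in hepatocytes and in sinusoidal endothelium beside factors such as HNF4A and C/EBP. Fasting and refeeding move the liver between glucose output with fat oxidation and glucose use with fat synthesis, the latter driven largely by insulin and SREBP-1.

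The mark was measured in 12 libraries, 1 per mouse, from frozen liver of male C57BL/6J mice aged 9 weeks in 4 groups of 3. All mice carried Gata4 alleles flanked by loxP sites (Gata4 fl/fl). Knockout mice had received AAV8-Tbg-Cre, in which the hepatocyte promoter Tbg drives Cre, and control mice the AAV8 vector without an insert; both were given at 8 weeks, 7 days before killing. Non-hepatocyte liver cells are therefore not the target of the vector, and whole tissue was used. Fasted mice went 12 h without food, overnight. Refed mice were fasted for 12 h by day and then ate a high sucrose diet (69% sucrose, 10% fat) for 12 h overnight. All mice were killed in the morning. The labels give the mice of a group 1 common number that no other group has, and whatever that number stands for cannot be told apart from the group.

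Reads in regions came to 22.2 to 30.4 M per library, and values are reads in a region scaled by 1 factor per library, called normalized reads below. Replicate libraries differed by more than counting noise, with a chi-square per degree of freedom of 4.48 to 8.95. Of 7 hepatocyte marker genes 5 had a region, and those for Alb, Apoa1, Ttr, Serpina1a and Cps1 stood at the 81.2nd to 96.1st percentile of all regions per kb. The GATA4 peaks come from libraries that were not analysed here, and the loss of GATA4 itself was not measured by these files. The domain over Gata4, of 26.3 kb at chr14:63845909-63872243 (all domain positions are on the build mm9), held 3464, 3535 and 3784 normalized reads in control fasted liver and 4157, 4177 and 3879 in knockout fasted liver. It held 5161, 5036 and 4745 in control refed and 5124, 5589 and 5756 in knockout refed liver. Its difference between genotypes missed the threshold in both states (adjusted p = 0.227 and 0.267), and this level does not report on the deletion.

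Domain sequences could not be shown because the reference tables at hand hold promoters, not mm9 genome. For 598 of the 822 domains the nearest gene had an entry in the RefSeq promoter table (GRCm38.p6), which runs from 250 bases before to 50 after a gene's start. The GATA4 peak overlapped that window in 67 of them (11.2%), by distances taken from the deposited annotation, and 46 of those genes have a single listed start. The motif searched, on either strand and with overlaps allowed, was AGATAA, with TGATAA as its variant in the first base, and the same pair with G in the last base, written AGATAG for the former and TGATAG for the latter. It was present in 20 of these 46 promoters (43.5%), in 90 of the 405 promoters with a single start among all matched domains (22.2%), and in 29.8% of all 32851 promoters of this length. A match is a string of letters and not a measured site. The following 6 promoters were chosen from the 20 with the motif after their values were seen. They show GATA4-bound starts within domains that fell with refeeding (the first 3) or rose (the last 3). Starts without a match were passed over, also where the domain changed more. Among these were Por (-1.57 on the log2 scale), Noct (-0.77), Tcf3 (-0.69) and Slc25a45 (0.76) on refeeding of control mice. The predicted gene Gm826 has 1 match and was passed over too, though its domain (-0.78) fell more than that of Cpox. Capitals mark the motif on either strand, and each sequence is printed 5′ to 3′ on the gene's strand.
Fbxo21 promoter (chr5:117976520-117976819, plus strand): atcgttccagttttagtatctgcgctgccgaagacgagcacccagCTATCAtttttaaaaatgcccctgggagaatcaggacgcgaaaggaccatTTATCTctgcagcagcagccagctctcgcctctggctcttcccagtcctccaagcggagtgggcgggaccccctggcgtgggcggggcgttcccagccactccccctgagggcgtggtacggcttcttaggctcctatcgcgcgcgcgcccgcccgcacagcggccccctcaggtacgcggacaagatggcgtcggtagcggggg
Ppm1k promoter (chr6:57535438-57535737, minus strand): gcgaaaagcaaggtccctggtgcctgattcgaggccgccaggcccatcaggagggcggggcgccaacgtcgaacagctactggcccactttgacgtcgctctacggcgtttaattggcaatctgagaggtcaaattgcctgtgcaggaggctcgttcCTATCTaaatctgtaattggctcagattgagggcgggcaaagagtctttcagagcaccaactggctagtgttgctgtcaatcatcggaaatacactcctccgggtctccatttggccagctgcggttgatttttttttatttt
Cpox promoter (chr16:58669958-58670257, plus strand): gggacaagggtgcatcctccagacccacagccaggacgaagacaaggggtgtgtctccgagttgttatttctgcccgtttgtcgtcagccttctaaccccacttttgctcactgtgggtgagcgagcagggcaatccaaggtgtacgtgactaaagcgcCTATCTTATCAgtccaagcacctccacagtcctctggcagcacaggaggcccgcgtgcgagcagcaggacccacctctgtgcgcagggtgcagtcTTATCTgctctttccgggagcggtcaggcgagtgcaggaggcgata
Fam124a promoter (chr14:62555487-62555786, plus strand): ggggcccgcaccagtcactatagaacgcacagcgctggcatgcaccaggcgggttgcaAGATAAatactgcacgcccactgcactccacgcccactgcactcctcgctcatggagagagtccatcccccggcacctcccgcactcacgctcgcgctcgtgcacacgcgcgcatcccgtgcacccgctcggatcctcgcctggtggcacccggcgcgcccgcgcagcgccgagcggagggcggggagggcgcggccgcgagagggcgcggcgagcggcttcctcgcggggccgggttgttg
Aldh9a1 promoter (chr1:167349741-167350040, plus strand): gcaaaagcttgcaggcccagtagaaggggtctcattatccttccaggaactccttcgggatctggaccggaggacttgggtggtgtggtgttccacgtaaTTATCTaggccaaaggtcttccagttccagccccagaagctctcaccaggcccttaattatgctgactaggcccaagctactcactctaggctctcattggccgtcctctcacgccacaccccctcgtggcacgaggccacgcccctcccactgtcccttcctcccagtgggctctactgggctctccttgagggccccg
Ormdl3 promoter (chr11:98587196-98587495, minus strand): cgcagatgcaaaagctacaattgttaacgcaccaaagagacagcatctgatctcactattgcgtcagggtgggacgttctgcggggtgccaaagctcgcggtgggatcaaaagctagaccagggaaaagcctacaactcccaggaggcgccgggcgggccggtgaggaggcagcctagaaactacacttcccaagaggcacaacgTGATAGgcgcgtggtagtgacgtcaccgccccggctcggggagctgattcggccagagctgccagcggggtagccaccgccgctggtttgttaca
In Cpox 2 of the matches overlap by a base. Acetylation of the Fbxo21 domain fell by 1.48 on the log2 scale on refeeding of control mice, that of Ppm1k, which encodes a phosphatase of branched-chain amino acid breakdown, by 0.98, and that of Cpox, an enzyme of heme synthesis, by 0.64. The domain of Fam124a rose by 1.60, that of Aldh9a1, an aldehyde dehydrogenase, by 0.68 and that of Ormdl3, a regulator of sphingolipid synthesis, by 0.55. None of the 6 domains was called between genotypes in either state (lowest adjusted p = 0.09).

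The one microRNA gene beside a domain that fell in knockout liver in both states is Mir29b-1. Its mature products (RefSeq, GRCm38.p6, chromosome 6, minus strand) are printed with the seed, bases 2 to 8, in capitals. The miR-29 family is known for its action on mRNAs of collagens and other matrix proteins.
mmu-miR-29b-3p: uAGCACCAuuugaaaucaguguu
mmu-miR-29b-1-5p: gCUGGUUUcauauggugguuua

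The share of regions with a listed GATA4 peak was higher in each wider class. It was 3.66% of 21719 regions under 1 kb, 33.8% of 1768 regions of 10 to 20 kb, 52.6% of 369 of 20 to 40 kb, and 30 of 41 regions of 40 kb or more (73.2%). A wider region has more room for a peak, and the column lists only 1 interval per region, so a density of peaks cannot be had. The domains were 10.0 to 115.8 kb wide with a median of 15.01 kb, and together spanned 15.1 Mb, 9.03% of the length covered by all regions.

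**Figure D1:**
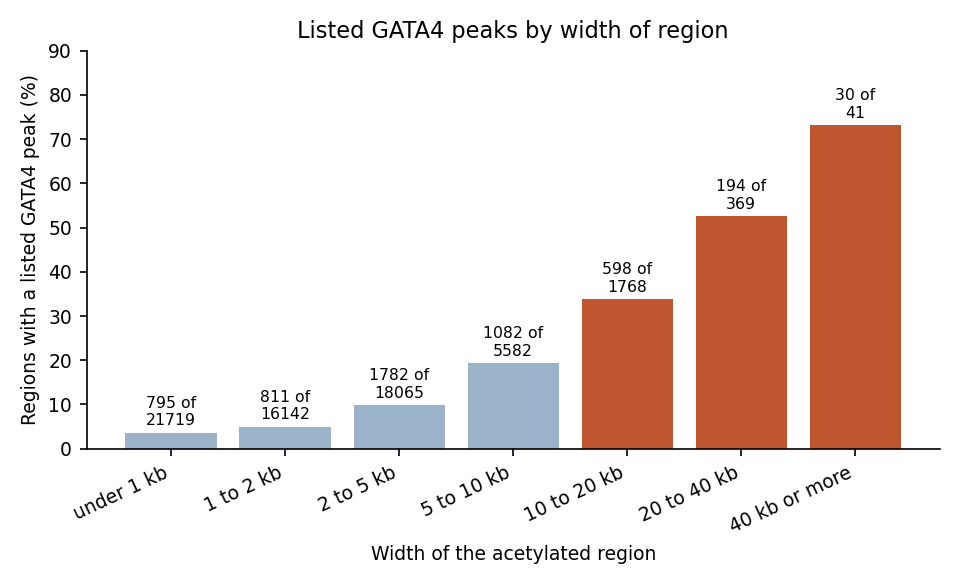
Share of acetylated regions with a listed GATA4 peak (percent, y axis) by width class of the region (x axis), with the number bound and the number in the class above each bar; orange bars are the wide domains. The share is 3.66% under 1 kb and 73.2% at 40 kb or more.

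They held 14.9% ± 0.50 (SD, n = 3) of the reads in regions in control fasted liver, 14.6% ± 0.263 in knockout fasted, 14.1% ± 0.448 in control refed and 13.5% ± 0.144 in knockout refed liver. The single libraries ran from 13.3% to 15.4%. Per kb of length the median domain had 221 normalized reads, against 209 in wide domains without a listed GATA4 peak, 78.1 in narrower bound regions and 53.9 in narrower unbound ones. Within the set the median was also higher in wider domains, with a median of 180 in domains of 10 to 12 kb and 269 in those of 30 kb or more.

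By the deposited HOMER annotation of the region's centre, 496 domains were centred in introns, 224 between genes, 39 at promoters, 22 at transcript ends, 15 in coding exons, 14 in 3' UTRs, 6 in 5' UTRs and 6 in noncoding transcripts. In 479 (58.3%) the domain reached over the transcription start of the nearest gene, as it did in 54.4% of wide unbound domains. The nearest genes numbered 754, of which 693 had a single domain, 54 a pair and 7 had 3. The nearest gene is a position label and not a measured target.

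The widest domains lay at Mtss1 (115.8 kb), Shb (92.6 kb), Tns1 (92.2 kb), Rxra (91.9 kb) and Zmiz1 (82.7 kb). Mtss1 encodes an actin-binding membrane protein, Shb an adaptor of tyrosine kinase receptors, Tns1 a focal adhesion protein, Rxra the common partner of many nuclear receptors and Zmiz1 a transcriptional coactivator. The Mtss1 domain, chr15:58802737-58918542, ranged from 35214 to 47116 normalized reads over the 12 libraries, about 346 per kb. The Zmiz1 domain rose on refeeding of control mice by 0.49 ± 0.06 on the log2 scale (adjusted p = 2.35e-05) and Mtss1 fell by 0.16 ± 0.05 (adjusted p = 0.0359; not called without control fasted replicate 1 or 3 or control refed replicate 2, nor with median-ratio rescaling, edgeR or DESeq2, adjusted p = 0.256, 0.224 and 0.296), while Shb, Tns1 and Rxra were not called in control mice. The highest signal per kb was at Hjurp (748), Zfp36 (586), Irf2bpl (584), Setd1b (583) and Irf2bp2 (548 normalized reads per kb). Zfp36 encodes tristetraprolin, which speeds the decay of cytokine mRNAs. At the width limit, the narrowest members were the domains near Plekha5 (10.01 kb, 156 per kb) and Phldb2 (10.02 kb, 191 per kb), and the widest bound regions left out lay near Lmod3 (9.998 kb, 165 per kb) and Eif4g3 (9.996 kb, 210 per kb). Refeeding of control mice gave log2 differences of 0.48 and -0.43 for the first pair and 0.06 and -0.55 for the second.

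The listed GATA4 interval was short against its domain, with a median of 651 bp (265 to 2964) or 4.20% of the domain's width, and lay wholly inside it in 821 of 822. Its centre was spread over the domain, but lay near the ends less often than an even spread would give. It lay on the lower-coordinate side of the domain's middle in 451 domains (54.9%), and in 50 of the 76 domains of 30 kb or more (65.8%). Only 78 (9.49%) had it within 10% of the domain's width from either end. Since a single interval is listed per region, a choice by coordinate order among several peaks cannot be told apart from position. The peak's centre was a median of 9.51 kb from the nearest gene's start, and within 1 kb in 85 of 598 matched domains.

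**Figure D2:**
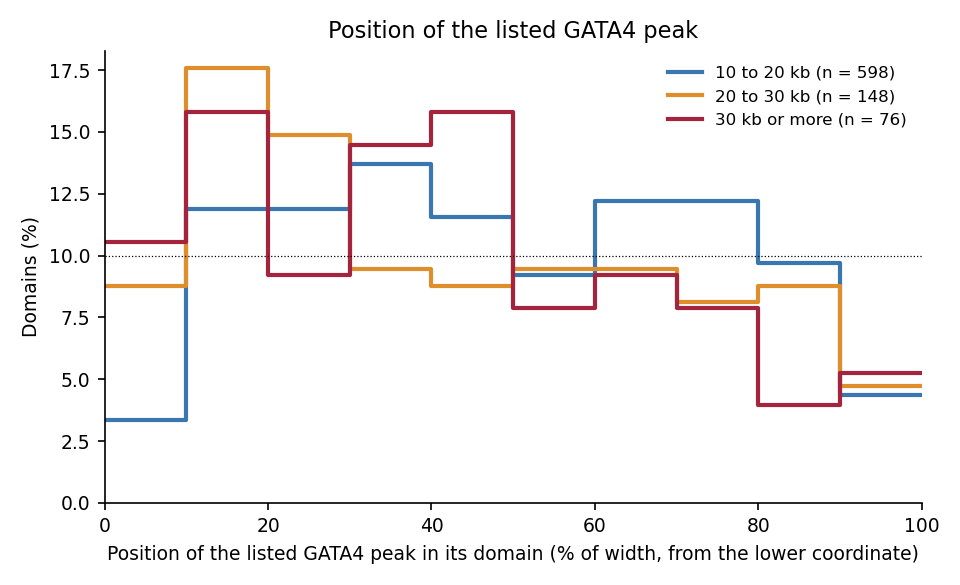
Position of the centre of the listed GATA4 peak in its domain (x axis, percent of the domain's width from its lower coordinate) against the percent of domains in each bin of 10% of the width (y axis), for 3 width classes; the dotted line marks an even spread. In domains of 30 kb or more 65.8% of peaks lie left of the middle.

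The first question of the design is what loss of GATA4 in hepatocytes does to acetylation. In fasted liver the domains that fell in knockout mice included those near Srebf1, the gene of the lipogenic factor SREBP-1, Osbpl1a, an oxysterol-binding protein of late endosomes, Ralgps2, an exchange factor for Ral GTPases, and Klf15, a fasting-related factor of amino acid breakdown. Those that rose included Mbnl2, a splicing regulator, and Acsl1, which activates long-chain fatty acids. Of the 822 domains 9 rose and 15 fell (2.92%; limma, adjusted p under 0.05 over all 63686 regions, the rule for every call below), where 0.557% of all regions were called, 0.312% higher and 0.245% lower. The median standard error of a domain was 0.0846 against 0.238 over all regions, so smaller differences can be called in them. None reached a 2-fold difference, where 90 of all regions were called higher and 78 lower by 2-fold. The median over the domains was -0.00 on the log2 scale, against 0.04 over all regions. Among wide domains without a listed GATA4 peak 17 rose and 10 fell of 1356 (1.99%), and among narrower bound regions 2 rose and 41 fell of 4470. In whole tissue, fewer cells of a type and less acetylation per cell cannot be told apart, here and below.

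The Srebf1 domain, chr11:60050732-60062137, is an 11.4 kb stretch centred in an intron 22.3 kb upstream of the Srebf1 start. It held 2105, 1904 and 1679 normalized reads in control fasted mice and 887, 1086 and 1086 in knockout fasted mice. The groups did not overlap, and knockout liver was lower by 0.89 ± 0.10 on the log2 scale, a ratio of 0.538 (adjusted p = 0.00121). This call held with each of the 12 libraries left out in turn.

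The Osbpl1a domain, 32.2 kb on chromosome 18, held 12682, 11173 and 12418 normalized reads in control fasted liver and 6273, 7373 and 8813 in knockout fasted liver (log2 difference -0.70 ± 0.10, adjusted p = 0.00996). At Ralgps2, chr1:158940302-158951723, the values were 1721, 1680 and 1980 against 1055, 1088 and 1309 (-0.64 ± 0.10, adjusted p = 0.0161). The groups stood apart at both. Igfbp4, which binds insulin-like growth factors, had 1867, 1666 and 1972 against 1254, 1287 and 1160 (-0.57 ± 0.10, adjusted p = 0.0215). Ly6e, a membrane-anchored surface protein, had 2412, 2526 and 2454 against 1550, 1947 and 1593 (-0.55 ± 0.08, adjusted p = 0.0116). The groups were separate in these domains too, and the Osbpl1a and Ly6e calls held with every library left out. Ralgps2 was not called without control fasted replicate 3 (adjusted p = 0.0572) or knockout fasted replicate 1 (0.0743), and Igfbp4 not without replicate 1 or 3 of either fasted group (0.0621 to 0.0779). The 14.5 kb domain 27.0 kb from Klf15 fell by 0.47 (adjusted p = 0.0351), and the other 9 that fell, near Gm10804, Mir29b-1, Wfdc21, Slc35e2, Spata2l, Furin, Hacd3, Lncpint and Arl4d, by 0.32 to 0.51.

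Among the rises, the Mbnl2 domain, chr14:120749050-120759085, held 1188, 1243 and 1481 normalized reads in control fasted liver and 1879, 2464 and 2503 in knockout fasted liver. The log2 difference was 0.80 ± 0.14 (adjusted p = 0.0228). Leaving out knockout fasted replicate 2 or 3 or control fasted replicate 1 ended the call (adjusted p = 0.0562, 0.0804 and 0.0759). In refed liver the genotypes overlapped there, with 1492, 1476 and 1639 against 1555, 1494 and 1053. The Acsl1 domain, chr8:47566888-47591016, had 2998, 2604 and 2723 against 4820, 4025 and 3384 in fasted liver (0.54 ± 0.11, adjusted p = 0.0337). The groups were apart, but the call held in 5 of the 12 fits with a library left out, with adjusted p up to 0.145. Tceanc2, the neurotrophin receptor gene Ntrk2 and the ether lipid enzyme gene Agps rose by 0.58, 0.51 and 0.49, and Gse1, Lhpp and Ly86 by 0.38 to 0.45.

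The count of domains called between genotypes in fasted liver depended on single libraries and on scaling. Rises fell from 9 to 1 without control fasted replicate 1 or 3, knockout fasted replicate 1, control refed replicate 3 or knockout refed replicate 1, to 2 without knockout fasted replicate 3 and to 4 without knockout refed replicate 2, and went to 14 without control fasted replicate 2. With control refed replicate 2 left out they numbered 6. Falls went from 15 to 4 without knockout fasted replicate 1, 5 without control fasted replicate 3, 7 without control fasted replicate 1 and 27 without control fasted replicate 2. With libraries rescaled by the median ratio over regions, 2 domains rose and 11 fell, and with edgeR on recovered reads 2 rose and 10 fell. Acsl1 (adjusted p = 0.101 and 0.0933) and Klf15 (0.0758 and 0.0752) were then not called. Over all regions 199 rose and 156 fell in the main fit, 118 and 133 with rescaling, and 116 and 128 with edgeR.

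In refed liver the domains that fell in knockout mice included those near Ralgps1, a second Ral exchange factor, Abcg8, which with ABCG5 exports sterols into bile, Hnf4a, the central transcription factor of hepatocytes, and Zfpm1, whose protein is a cofactor of GATA factors. Srebf1 and Ralgps2 were among them again. Those that rose included the receptor genes Egfr and Insr and the gene of the activin antagonist follistatin, Fst. In all, 11 rose and 18 fell of 822 (3.53%), where 2.02% of all regions were called, 1.73% higher and 0.297% lower. None changed 2-fold. The median over the domains was -0.04 against 0.10 over all regions on the log2 scale, and -0.13 against 0.02 with median-ratio rescaling. Wide unbound domains had 27 rises and 11 falls of 1356, and narrower bound regions 25 rises and 54 falls of 4470.

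The Ralgps1 domain, chr2:33214303-33227464, held 4749, 5519 and 5098 normalized reads in control refed liver and 3464, 3578 and 2654 in knockout refed liver. The groups were apart, with a log2 difference of -0.67 ± 0.11 (adjusted p = 0.01), and the call held with each library left out. In fasted liver it was at 1292, 1299 and 1322 against 1584, 1243 and 1351, with overlapping groups.

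The Abcg8 domain, chr17:85126429-85145155, is centred 53.3 kb downstream of the Abcg8 start. It held 3846, 2730 and 3408 normalized reads in control refed mice and 2499, 2071 and 2047 in knockout refed mice, with no overlap (-0.59 ± 0.13, adjusted p = 0.0311). The call was lost without control refed replicate 1 or 3 or knockout refed replicate 2 or 3 (adjusted p = 0.0889, 0.0779, 0.096 and 0.107), with median-ratio rescaling (0.0546) and with edgeR (0.0584).

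The Hnf4a domain, chr2:163371677-163391393, reaches over the gene's start and held 6471, 6438 and 6359 normalized reads in control refed liver and 5531, 5014 and 5426 in knockout refed liver. It was lower in knockout by 0.27 ± 0.05, a ratio of 0.828 (adjusted p = 0.0229). In fasted liver the values were 6272, 5775 and 6082 against 5358, 5312 and 5423, also without overlap, and the difference of -0.17 ± 0.05 missed the threshold (adjusted p = 0.181). In refed liver the call was lost without control refed replicate 2 or 3 (adjusted p = 0.0515 and 0.0534) and without knockout refed replicate 2 or 3 (0.0847 and 0.0532).

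The Srebf1 domain held 2501, 2878 and 2709 normalized reads in control refed and 1831, 2120 and 2048 in knockout refed liver. It was lower by 0.43 ± 0.10 (adjusted p = 0.0436), near the threshold: the call held only without control fasted replicate 1 or 3 or knockout fasted replicate 1, and the adjusted p without each of the other 9 libraries ran from 0.0503 to 0.141. The other falls were at Mir122, Ralgps2, Ugdh, which makes UDP-glucuronate, the forkhead gene Foxn3, Mir29b-1, Mir3067, Zfpm1, Irf2bp2, Slc3a1, Zfp809, Pmf1, Man2a1, Zfp36 and Cyp2d22, between 0.24 and 0.47. The Mir122 domain, on chromosome 18, was outside the rule for named genes and is named for the main microRNA of hepatocytes after its values were seen, with 6464, 5947 and 6104 against 4698, 4526 and 4162 normalized reads. Its call held in 6 of the 12 fits with a library left out and was lost with median-ratio rescaling and edgeR.

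Of the rises, the Egfr domain, chr11:16689501-16715045, held 1370, 1213 and 1522 normalized reads in control refed and 2118, 1964 and 2682 in knockout refed liver (0.71 ± 0.17, adjusted p = 0.0413). The Insr domain, in an intron of the insulin receptor gene at chr8:3213751-3224182, held 1022, 778 and 987 against 1414, 1556 and 1361 (0.64 ± 0.13, adjusted p = 0.0218). The groups did not overlap in either. The Fst domain had 1360, 1295 and 1175 against 1691, 1708 and 1776 (0.44 ± 0.09, adjusted p = 0.0212). The other rises, near Padi1, Nsun2, Israa, Plekha6, Slc35e3, Egfl7, Tef and Rapgef1, were between 0.29 and 0.68. No rise in refed liver was called with median-ratio rescaling or with edgeR (both 0), where falls numbered 12 and 9. DESeq2 called 5 rises. Over all regions rises numbered 1100 in the main fit, 474 with rescaling, 437 with edgeR and 1555 with DESeq2. Falls over all regions numbered 189, 227, 170 and 1168 in the same order. The differences stayed near their size with rescaling, at 0.55 for Insr (adjusted p = 0.0727) and 0.62 for Egfr (0.0986). Egfr was called without any 1 of the 3 control fasted libraries and lost without any of the other 9 (adjusted p up to 0.148), and Insr was lost without control refed replicate 2 or knockout refed replicate 1 or 2 (0.0652, 0.0633 and 0.0761). Counts moved with single libraries as well. Falls went from 18 to 4, 6 and 2 without control refed replicate 1, 2 or 3 and to 4, 1 and 7 without knockout refed replicate 1, 2 or 3, and rises from 11 to 3 and 2 without control refed replicate 2 or 3 and to 1, 1 and 2 without the knockout refed replicates. Rises numbered 7 without control fasted replicate 2 and 6 without knockout fasted replicate 1 or 2.

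The fasted and refed comparisons of genotype share no library. Of the 24 domains called in fasted liver, 22 had the same sign in refed liver, and of the 29 called in refed liver 22 had the same sign in fasted liver. Over all regions these numbers were 271 of 355 and 990 of 1289. Those called in both were 3, all lower: Srebf1, Ralgps2 and Mir29b-1, which is 12.5% of the first list and 10.3% of the second, against 14.9% and 4.11% over all regions. At Ralgps2 refed values were 1610, 1289 and 1449 in control and 1029, 1000 and 1121 in knockout liver, and this refed call held in 7 of the 12 fits with a library left out. The Mir29b-1 refed call held in 3 and its fasted call in 8. The Mir29b-1 domain, chr6:31036210-31054194, held 4166, 3452 and 4675 normalized reads in control fasted and 2842, 2974 and 2839 in knockout fasted liver, and 5165, 5524 and 5413 against 4353, 4213 and 3641 in refed liver. Genotype groups did not overlap in either state at these domains. Across the 822 domains the 2 genotype differences had a Pearson correlation of 0.305 and a Spearman correlation of 0.323, against 0.154 and 0.195 in wide unbound domains and 0.345 and 0.294 in narrower bound regions. These are descriptions over regions, which are not independent and share their libraries within each comparison.

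**Figure D3:**
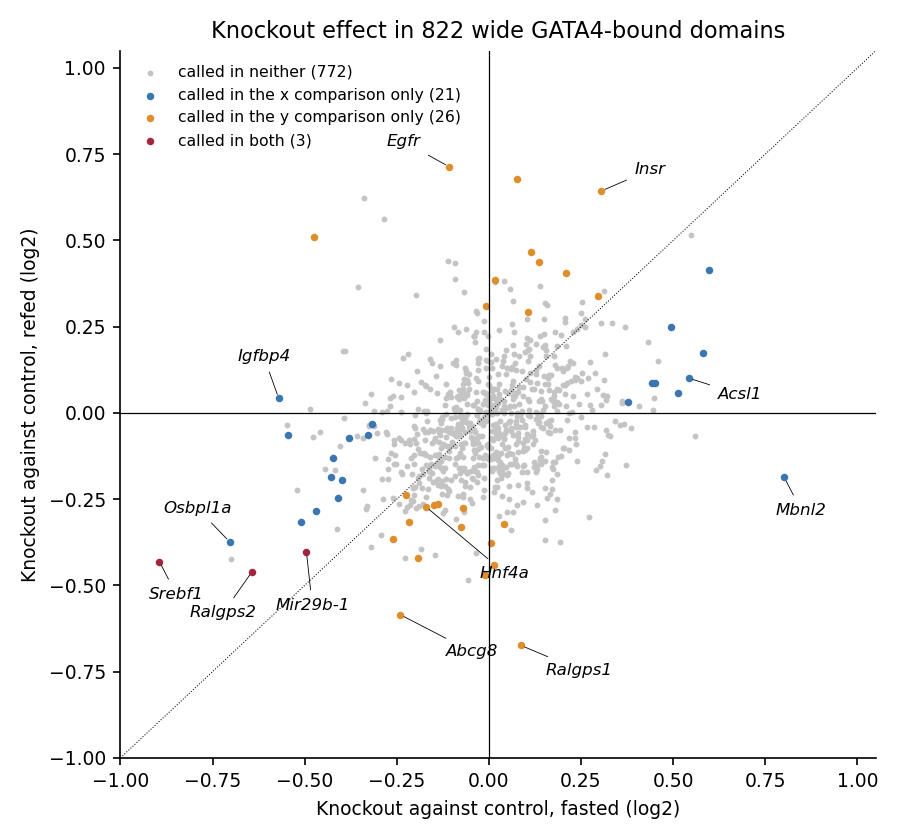
Knockout against control difference of each of the 822 domains (log2) in fasted liver (x axis) and refed liver (y axis), 1 point per domain, coloured by call; the dotted line marks equal differences. Only 3 domains are called in both, all at the lower left.

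**Figure D4:**
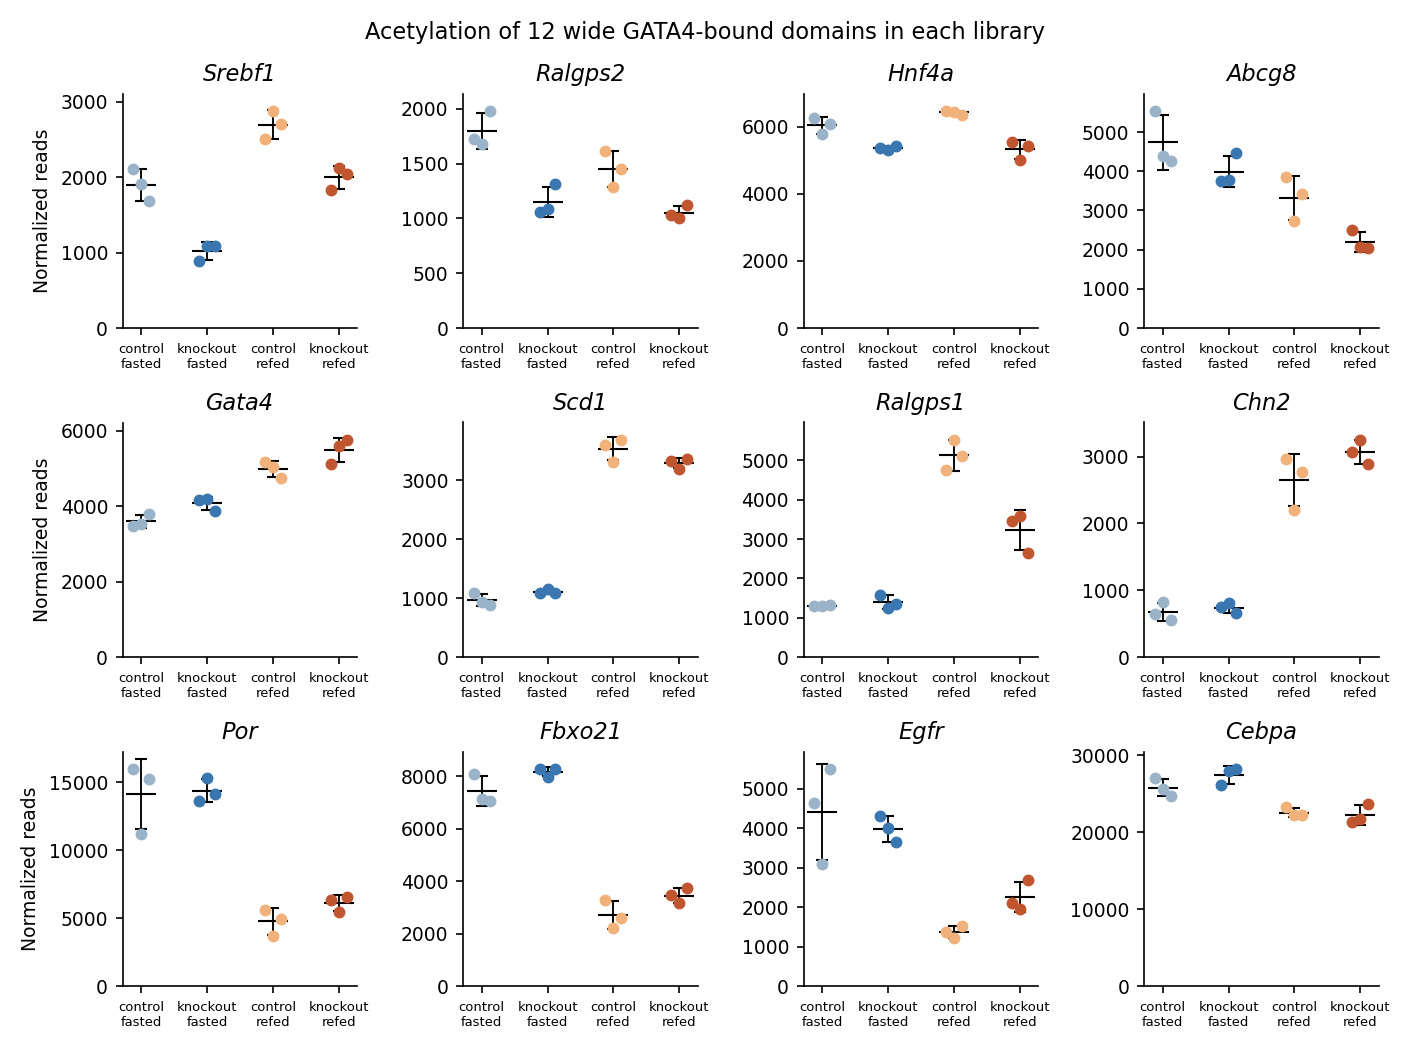
Normalized reads (y axis, from 0) of 12 named domains in each library by group (x axis); points are the 3 libraries of a group, horizontal marks the mean and bars the SD. Srebf1, Ralgps2 and Hnf4a are lower in knockout liver in both states, the last called only in refed liver, while Scd1, Por and Fbxo21 separate by feeding.

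The second question is how refeeding changes the domains. In control liver the largest rises were near Ralgps1, Chn2, a GTPase-activating protein for Rac, Ttc25, an axonemal protein, Scd1, the desaturase of fat synthesis, Fam124a and Cs, citrate synthase. The largest falls among named genes were near Padi1, a peptidylarginine deiminase, Egfr, Por, the electron donor of microsomal cytochromes P450, Fbxo21, an F-box protein, Tbl1xr1, a part of corepressor complexes, and Sall1. Of the 822 domains 179 rose and 268 fell (54.4%), where 30.0% of all regions were called (13.2% higher and 16.8% lower). At least 2-fold, 13 domains rose and 26 fell, against 3142 and 5909 of all 63686 regions. The median absolute log2 difference was smaller in the domains, 0.27 against 0.37 over all regions. Their median standard error was smaller too, 0.0846 against 0.238. Wide unbound domains were called at 57.7% (348 rises and 434 falls of 1356), so the share was not higher with a GATA4 peak.

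The Scd1 domain, chr19:44451958-44466057, lies 23.2 kb downstream of the gene's start, between genes. It held 1083, 936 and 880 normalized reads in control fasted and 3603, 3308 and 3683 in control refed liver, a log2 difference of 1.87 ± 0.08, or 3.66-fold (adjusted p = 3.28e-09). In knockout liver it was 1084, 1147 and 1089 fasted and 3318, 3191 and 3358 refed. Feeding states did not overlap in either genotype. The Chn2 domain went from 644, 830 and 559 to 2969, 2209 and 2775 in control liver (1.97 ± 0.14), and the Ralgps1 domain rose by 1.97 ± 0.11 between the values given above.

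Of the falls, the Por domain, 50.2 kb at chr5:136143526-136193767, held 15967, 11146 and 15198 normalized reads in control fasted and 5614, 3704 and 4942 in control refed liver (-1.57 ± 0.14, adjusted p = 1.38e-06). Fbxo21, chr5:118426028-118449910, went from 8103, 7141 and 7079 to 3274, 2226 and 2605 (-1.48 ± 0.11, adjusted p = 2.41e-07). Egfr went from 4631, 3090 and 5506 to 1370, 1213 and 1522 (-1.65 ± 0.17). In all 3 the refed libraries lay below every fasted library. The largest falls of all were at domains near predicted genes, 1110034G24Rik (-2.45) and A430090L17Rik (-2.43), which the rule for named genes left out and which are given after their values were seen.

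The direction differed by position. Of 343 domains that did not reach the start of their nearest gene, 18.1% rose and 41.1% fell on refeeding of control mice, with a median of -0.17 on the log2 scale. Of 479 that did, 24.4% rose and 26.5% fell, with a median of 0.01. The same counts in knockout liver were 15.5% and 40.2% against 19.8% and 26.7%. Among the 76 domains of 30 kb or more 10 rose and 36 fell in control liver, and 10 rose and 35 fell in knockout liver. These shares were not tested against each other. Neither split was made for wide unbound domains or for all regions. Whether these patterns are particular to domains with a GATA4 peak was therefore not tested. Without a split, 25.7% of wide unbound domains rose and 32.0% fell in control liver, against 21.8% and 32.6% of the 822 domains.

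In knockout liver refeeding raised 148 domains and lowered 266 (50.4%), where 24.7% of all regions were called (13.3% higher and 11.4% lower). The comparisons in control and knockout mice share no library, and 337 domains were called in both, all with the same sign, 124 higher and 213 lower. That is 75.4% of those called in control and 81.4% of those called in knockout liver, against 72.1% and 80.6% with the same calls in wide unbound domains and 57.3% and 69.6% over all regions. Across the domains the refeeding differences had a Pearson correlation of 0.903 and a Spearman correlation of 0.883, against 0.909 and 0.882 in wide unbound domains. Srebf1 rose by 0.51 ± 0.10 in control and by 0.97 ± 0.10 in knockout liver (adjusted p = 0.00146 and 9.71e-06), and Fam124a by 1.60 and 1.87. Slc22a7, an organic anion transporter, rose by 1.07 and 1.16, and Hsd17b6, a hydroxysteroid dehydrogenase, fell by 1.17 in control and by 1.42 in knockout liver.

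**Figure D5:**
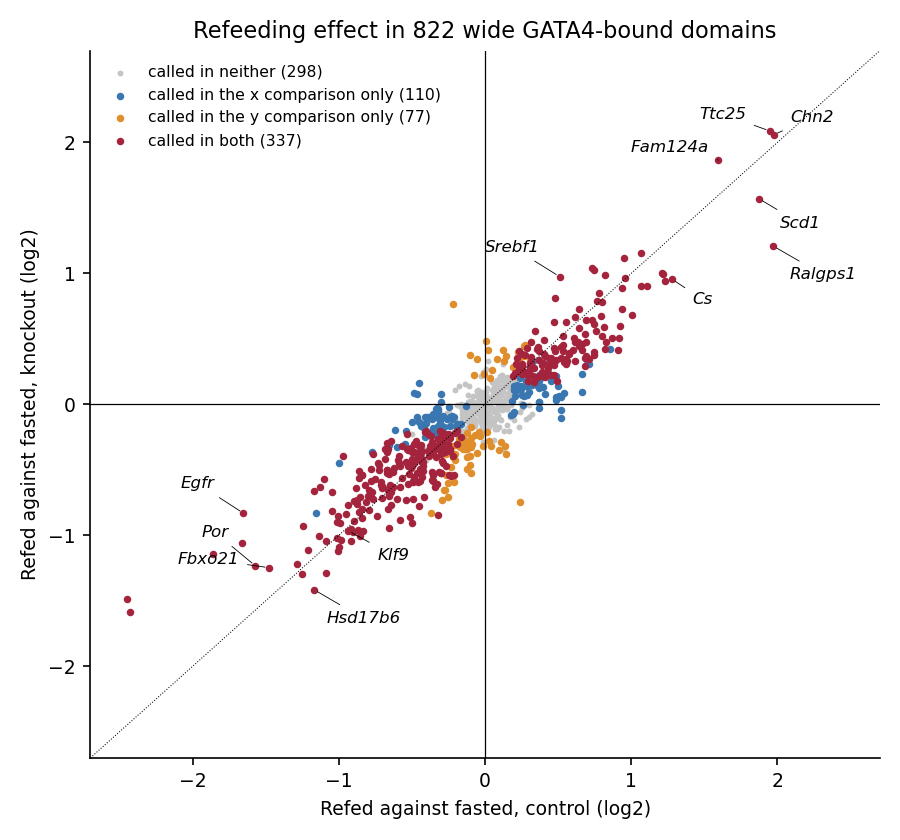
Refed against fasted difference of each of the 822 domains (log2) in control (x axis) and knockout liver (y axis), 1 point per domain, coloured by call; the dotted line marks equal differences. The 337 domains called in both lie in the upper right and lower left quadrants.

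Whether the refeeding effect itself differed between genotypes was tested as an interaction. By limma 0 domains were called, where 0.0236% of all regions were (0.0157% higher and 0.00785% lower), with 149 domains at an unadjusted p under 0.05. Over all regions edgeR called 7 higher and 3 lower, DESeq2 314 and 195, and the main test with a pseudocount of 5 called 20 and 8. Of the domains DESeq2 called 4: Mbnl2 (adjusted p = 0.001), Ralgps1 (0.00176), Nsun2 (0.00782) and Xirp1 (0.0396). With edgeR 0 were called, and with a pseudocount of 5 a single one (adjusted p = 0.0492). The lowest adjusted p in the main fit was also at Nsun2, the gene of an RNA methyltransferase (0.0653), with a refeeding effect of -0.22 in control and 0.77 in knockout liver. Next came Mbnl2 (adjusted p = 0.0967, interaction -0.99 ± 0.20) and Ralgps1 (0.0973, -0.76 ± 0.15). At Mbnl2 refeeding gave 0.24 in control and -0.75 in knockout liver. For Srebf1 the interaction was 0.46 ± 0.14 (adjusted p = 0.304). Without control fasted replicate 2, 3 interactions were called higher and 1 lower, and 1 was called higher without control refed replicate 1 or without knockout refed replicate 1.

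Of the genes of hepatic pathways, transcription factors of hepatocytes were the best represented, with 15 of 26 genes beside 18 domains. For each list, the shares to set beside its counts are those of all 822 domains, of which 21.8% rose and 32.6% fell on refeeding of control mice, and of all regions, 13.2% and 16.8%. On refeeding of control mice 1 of the 18 rose, Gata4 by 0.47 ± 0.06, and 8 fell, with a median of -0.19 on the log2 scale against -0.03 over all regions. The falls were led by Klf9, a glucocorticoid-induced factor, at chr19:23128791-23147889, with 8625, 7572 and 7307 against 4447, 3641 and 4189 normalized reads (-0.94 ± 0.08, adjusted p = 8.29e-07), and by Prox1 (-0.63 ± 0.10). Cebpa, under a 60.5 kb domain, fell by 0.19 ± 0.05 (27019, 25615 and 24772 against 23224, 22243 and 22222, with no overlap), and this call was lost with median-ratio rescaling, edgeR and DESeq2 (adjusted p = 0.13, 0.104 and 0.137). For genotype, Klf15 fell in fasted, and Hnf4a and Zfpm1 in refed liver, the last with 4609, 5604 and 5368 against 3631, 3899 and 4591 normalized reads. With single libraries left out, the Klf15 call held in 7 of 12 fits and the Zfpm1 call in 3. Klf15 was lost without control fasted replicate 1 or 3, knockout fasted replicate 1 or 3 or knockout refed replicate 1 (adjusted p = 0.113, 0.0795, 0.175, 0.0687 and 0.055).

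Genes of fat synthesis and glycolysis had 9 domains for 9 of 30 genes, of which 4 rose and 1 fell in control liver on refeeding, with a median of 0.28. Among them Scd1 and Srebf1 rose as given, and Khk, ketohexokinase, by 0.61 ± 0.06. Gpam, the acyltransferase that starts triglyceride synthesis, fell by 0.23 (adjusted p = 0.0324). In knockout liver 3 rose and 1 fell. In the genotype comparisons Srebf1 was the only one of the 9 called, in both states.

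Of 6 domains at genes of amino acid breakdown and the urea cycle 5 fell and none rose on refeeding of control mice, with a median of -0.41. They include Hgd, an enzyme of tyrosine breakdown (-0.79 ± 0.09, adjusted p = 1.77e-05), and Mat1a, which makes S-adenosylmethionine (-0.49 ± 0.10). Of 5 domains at cytokine response genes 3 fell, 2 at Il1r1 (-0.94 ± 0.10 and -0.78 ± 0.11) and 1 at Il6ra (-0.73 ± 0.09), which encode receptors of interleukin-1 and interleukin-6. Cpt1a, the entry enzyme of mitochondrial fat oxidation, fell by 0.74 ± 0.14 and Acsl1 rose by 0.51 ± 0.11. The clock list had 6 domains with 2 rises, Per2 by 0.43 and Rora by 0.30, and 1 fall, Hlf by 0.30, which missed the threshold without control fasted replicate 1 or control refed replicate 2 (adjusted p = 0.0533 and 0.0508) and with median-ratio rescaling, edgeR and DESeq2 (0.0639, 0.0537 and 0.057). None of these 3 was called between genotypes, while Tef, another clock-linked factor of the list, was higher in knockout refed liver by 0.31 ± 0.07 (adjusted p = 0.0457; 4841, 4392 and 4801 against 5763, 5659 and 5962), a call lost with median-ratio rescaling, edgeR and DESeq2 and in 8 of the 12 fits with a library left out.

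The other lists were plasma proteins (6 domains, 0 rises and 2 falls in control liver), cholesterol synthesis and uptake (5 domains, 1 and 2), sterol export (3 domains, 0 and 1, Abcg8), fasting and gluconeogenesis (10 domains, 2 and 3) and bile acids (2 domains, 1 and 0). The rises of the fasting list were the pair at Nr3c1, the glucocorticoid receptor gene, by 0.74 and 0.45. Abca1, the cholesterol exporter gene, held 7279, 6615 and 7258 normalized reads in control refed against 6112, 5959 and 6140 in knockout refed liver, apart but not called (-0.21 ± 0.07, adjusted p = 0.143). Alb, Apoa1, Pck1 and Cyp7a1 had no domain of this kind nearest to them.

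Of 61 genes with more than 1 domain, 26 had at least 2 called on refeeding of control mice, and in 23 the called domains moved the same way. The 3 domains at Septin9 rose by 0.75, 0.93 and 0.66, and the pair at Ppp1r3b, a glycogen-targeting subunit of protein phosphatase 1, by 0.83 and 0.64. The pair at Herpud1, an endoplasmic reticulum stress gene, fell by 1.00 and by 0.53. Opposite signs were seen at Irf2bp2 (0.20 and -0.32, the first not called with median-ratio rescaling, edgeR or DESeq2, nor in 4 of the 12 fits with a library left out), Dhrs3, a retinal reductase (0.41 and -0.45), and Mir698 (0.25 and -0.59). These genes were named after their values were seen.

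Marker sums of cholangiocytes, Kupffer cells and stellate cells stood apart by feeding in control liver, while those of lymphocytes, endothelium and hepatocytes overlapped. Summed over the best region of each of 7 measured cholangiocyte markers of 10, levels were 3787 to 3996 normalized reads in control fasted and 5067 to 5842 in control refed liver, and all 7 were called higher. For 8 of 13 Kupffer and macrophage markers they were 1507 to 1781 and 2089 to 2227, with 2 called, for 14 of 15 stellate markers 2222 to 2544 and 2610 to 2807, with 2 called, for 5 of 12 lymphocyte markers 2642 to 2786 and 2764 to 2926, with none called, and for 18 of 19 endothelial markers 25160 to 26085 and 25900 to 26475, with 2 higher and 4 lower. Hepatocyte markers summed to 29597 to 34262 and 27027 to 31250, with 2 of 5 lower. Between genotypes no marker's best region was called in either state, but some sums stood apart in refed liver. Stellate markers summed to 2226 to 2395 in knockout refed, endothelial markers to 24502 to 25391 and hepatocyte markers to 26124 to 26500, each range below that of control refed liver. Cholangiocyte markers (5414 to 5652) overlapped with control refed liver, as did Kupffer markers (2188 to 2511) and lymphocyte markers (2571 to 2765). In fasted liver all 6 ranges overlapped between genotypes. No measured marker was at 0 in all libraries. No domain lay nearest to a cholangiocyte, Kupffer or stellate marker, 6 lay nearest to endothelial and 1 to a lymphocyte marker. The 6 include a domain 30.8 kb from Egfl7 that rose in knockout refed liver by 0.34 ± 0.08 (adjusted p = 0.0469). Its call held in 3 of the 12 fits with a library left out (adjusted p up to 0.148). It was lost with median-ratio rescaling (0.0993) and edgeR (0.0891). The part of these cells in the refeeding and genotype results was not tested.

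The authors' deposited tables list only regions with an FDR under 0.05. In the authors' deposited table for fasted liver 11 of the domains are listed, 1 higher and 10 lower in knockout, and 9 of them were also called here; that is 1.34% of the domains, where the table holds 3.17% of all regions. In the authors' deposited table for refed liver 39 are listed, 1 higher and 38 lower, 19 of them also called here, which is 4.74% of the domains against 6.59% of all regions. The authors' deposited genotype table lists 20 (2.43% against 0.473% of all regions), 1 higher and 19 lower. Its log2 ratio is -1.01 for Srebf1 and -0.80 for Osbpl1a. The authors' ratios for these domains are -0.95 and -0.74 in fasted liver and -0.55 and -0.50 in refed liver. The genotype ratios thus lie beyond those of both states and are not their mean. The authors' deposited interaction table lists 12 of the domains (1.46% against 1.53% of all regions), 5 higher and 7 lower, with Mbnl2 at -0.89 and Ralgps1 at -0.69. None of the 12 was called here by limma in the main fit, while the 4 domains called by DESeq2 are all among them.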

How the data were processed

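H3K27ac ChIP-seq signal was taken from the normalized table the authors deposited, in which each value is a signal, a whole number of reads in a region divided by 1 factor per library. Dividing each column by its smallest step gave back the reads, 100% of them within 0.01 of a whole number. The submitters' processing notes name Bowtie2 and the build mm9, MACS2, DiffBind with edgeR, and HOMER, among other tools; their versions and settings were not given. HOMER's columns stand beside the regions, per the file headers. The authors' comparison tables give deposited log2 ratios and FDR, a p-value adjusted by the authors, and the sign of the genotype table was turned after a check against group means. The 12 input libraries were not analysed here.

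Differences were tested with limma 3.58.1 (R 4.3.3) after adding a pseudocount of 1 and taking log2, using moderated variances that follow the mean level. A single model held the 12 libraries in 4 groups with 8 residual degrees of freedom and no covariate, and p-values were adjusted by the Benjamini-Hochberg method over all 63686 regions in each of 5 contrasts. Values after ± on log2 differences are standard errors, and others are SD. With 3 mice per group, p-values set a difference against the spread between mice within groups, shared over the 4 groups and moderated over regions. That spread does not cover whatever the common number of a group's mice stands for. Folds on this scale understate changes of low regions, of which the domains hold few. Alternatives were edgeR 4.0.16 quasi-likelihood and DESeq2 1.42.0 on the recovered reads, a pseudocount of 5, median-ratio rescaling, leaving out regions with a mean under 33.1 normalized reads, each library left out, and width limits of 8 and 15 kb. The fits were tested on simulated data. Nearest genes are those of the deposited annotation, where the names of 4 domains that a spreadsheet had turned into dates were repaired, and RefSeq sequences were matched by gene ID.

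Genes were named by a rule: 10 anchor genes of liver metabolism where a domain lay beside them; per contrast the 6 largest rises and falls among called domains with groups apart, predicted genes left out; up to 3 domains per gene list; and the widest, the densest and those at the width limit. Other called domains are also named, and a few genes within these rules are not reported here. The members, gene lists and rule were chosen with earlier results of these data known, so no p over a list is given and no pattern here is independent support of those results.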

Additional observations from a re-analysis of the deposited data

How the results depend on the processing

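Most refeeding calls held under other tests, and many genotype calls were lost with median-ratio rescaling or edgeR. Refeeding rises in knockout liver went from 148 to 115 with rescaling and 109 with edgeR. Refeeding falls in control liver went from 268 to 214 and 227. Over all regions these counts changed by a smaller part. Rises in knockout liver went from 8466 to 7880 and 7703, and falls in control liver from 10705 to 10153 and 10441. Of 447 domains called on refeeding of control mice, 395 remained called with edgeR, 402 with DESeq2 and 388 with median-ratio rescaling, each with its sign. Domains rising in knockout liver numbered 2 fasted and 0 refed with median-ratio rescaling and the same 2 and 0 with edgeR, which called 9 falls in refed liver. DESeq2 called 10 rises and 28 falls in fasted, and 5 rises and 79 falls in refed liver, and interactions of 2 higher and 2 lower. Over all regions DESeq2 called 612 rises and 584 falls in fasted, and 1555 rises and 1168 falls in refed liver. Its interactions over all regions were 314 higher and 195 lower. A pseudocount of 5 called 1 interaction, higher. Rescaling moved the median genotype difference over all regions in refed liver from 0.10 to 0.02, and that over the domains from -0.04 to -0.13. In fasted liver the median went from 0.04 to 0.01 over all regions and from -0.00 to -0.03 over the domains. All 24 and 29 genotype calls kept their sign under every test and with every library left out. The cause of these shifts was not tested.

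With each library left out, genotype rises ranged from 1 to 14 in fasted and 1 to 13 in refed liver, and falls from 4 to 27 and from 1 to 22. Refeeding rises ranged from 161 to 179 in control and 119 to 151 in knockout liver, falls from 220 to 271 and from 222 to 279, and interactions from 0 to 3 higher and 0 to 1 lower. With a lone library fewer in a group, the spread was shared over all groups.

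A width limit of 15 kb keeps the 187 domains of 15 to 20 kb, the 148 of 20 to 30 kb and the 76 of 30 kb or more. Genotype rises were then 4 and 5 and falls 7 and 11 in fasted and refed liver. Refeeding rises were 93 and 72 and falls 145 and 149 in control and knockout liver. The share of reads was then 10.7% in control fasted, 10.5% in knockout fasted, 10.1% in control refed and 9.55% in knockout refed liver, and 17.1%, 16.8%, 16.4% and 15.7% at 8 kb. Of the named domains' alternative values 2414 kept their side of the threshold, 270 lost a call and 2 gained one, both at Abca1 without control fasted replicate 1, and none turned.

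No paired analysis was possible because the labels give no replicate numbers shared between groups. Small differences are limited by the spread between mice, with a median standard error of 0.0846 on the log2 scale in the domains, and replicates differed by more than counting noise.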
